A study of Mus musculus with 2 samples.

Results

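Interferon-stimulated genes and the immunity GTPases were examined on 2 expression arrays of mouse hippocampus, 1 from a sham-operated and 1 from a 5/6Nx sample. The members were the array features, controls left out, whose gene name equals an entry on a list of 36 genes. Of these, 35 were found under their listed name, with 46 probes on 55 spots, out of 34741 genes and transcripts and 55681 probes on the array. They comprise 21 genes listed as targets of type I interferon, 13 GTPases listed as inducible by interferon-gamma, and Irf1, a transcription factor of both arms that stands in neither list. The lists are not exclusive, since a gene on either list can also respond to the other interferon.

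Interferons are cytokines that cells release on meeting viral nucleic acid or that lymphocytes release on activation. Type I interferons act through a receptor that activates STAT2 and IRF9, which bind, as part of a complex, the interferon-stimulated response element (ISRE) of antiviral genes. Interferon-gamma acts through a separate receptor and STAT dimers, which bind the gamma-activated site (GAS), and induces Irf1 and large families of GTPases. The immunity-related GTPases (IRG) and guanylate-binding proteins (GBP) gather on the vacuoles of intracellular microbes and help to break them open. In brain, microglia, astrocytes, endothelium and neurons can all respond to interferon.

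Both samples came from ICR mice, an outbred stock, and from the hippocampus 8 weeks after operation. The groups were a sham operation and 5/6Nx, the usual short form for 5/6 nephrectomy, in which most kidney tissue is removed to model chronic kidney disease. The labels give no genotype, transgene or further treatment for either group, and they do not state the age, the sex or the number of animals behind each array. With 1 array in each group there is no replicate check, so no p-value was computed and every difference describes these 2 samples only. Differences are log2 intensity in 5/6Nx minus that in sham, with the 75th percentile of each array as its zero. A gene is counted as lower or higher when the difference is at least 2-fold, a size that stands in for no test.

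The arrays had similar depth of signal, with 72.7% of spots well above background in sham and 72.5% in 5/6Nx and no saturated spot. Of 25917 genes measured on both, 3.29% were at least 2-fold lower in 5/6Nx and 4.89% at least 2-fold higher, together 8.18%, around a median of 0.05 (SD 0.60 across genes). The higher share of the 2-fold differences was 59.8%, and this split depended on the scaling, with 49.7% under quantile normalization, 47.9% under lowess, 49.4% in the table the authors normalized, 42.3% with medians set equal and 29.7% with spike-in probes set equal. "Above background" stands throughout for the scanner's mark of a spot well above background. All 12 listed markers of hippocampal neurons were measured on both arrays. Markers of other tissues differed strongly between the samples, and their values are given beside the member results.

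The interferon members were mostly lower in the 5/6Nx sample. Of the 33 members measured on both arrays, 17 were at least 2-fold lower, where the share over all genes was 3.29%, and 1, Gbp6, was higher, where that share was 4.89% (8.18% for either direction). The median difference was -1.06 and 29 members lay below 0, against a median of 0.05 and 44.6% of genes below 0 over the whole array. The members were chosen with earlier results of these data known, so these counts are not independent of the choice of genes. Of 31 further interferon-stimulated genes outside the members, 3 were lower and 1 higher, with a median of -0.19. Ifi44 and Mx1 were above background in sham only, and no member was above background in 5/6Nx only. In tissue of mixed cells, fewer cells of a type and less RNA per cell cannot be told apart. In the same samples, the summed signal of 15 blood cell markers, before scaling, was 311171 in sham and 24447 in 5/6Nx. Haemoglobin genes weigh heavily in this sum, with Hba-a2 alone at 189146 and 14251. A separate leukocyte list summed to 11299.8 and 9949 over 8 genes, with a median difference of 0.03. For 12 leptomeningeal fibroblast markers the sums were 74607 and 16434. Choroid plexus markers were higher in 5/6Nx. The part of these tissues in the member differences was not tested.

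**Figure D1:**
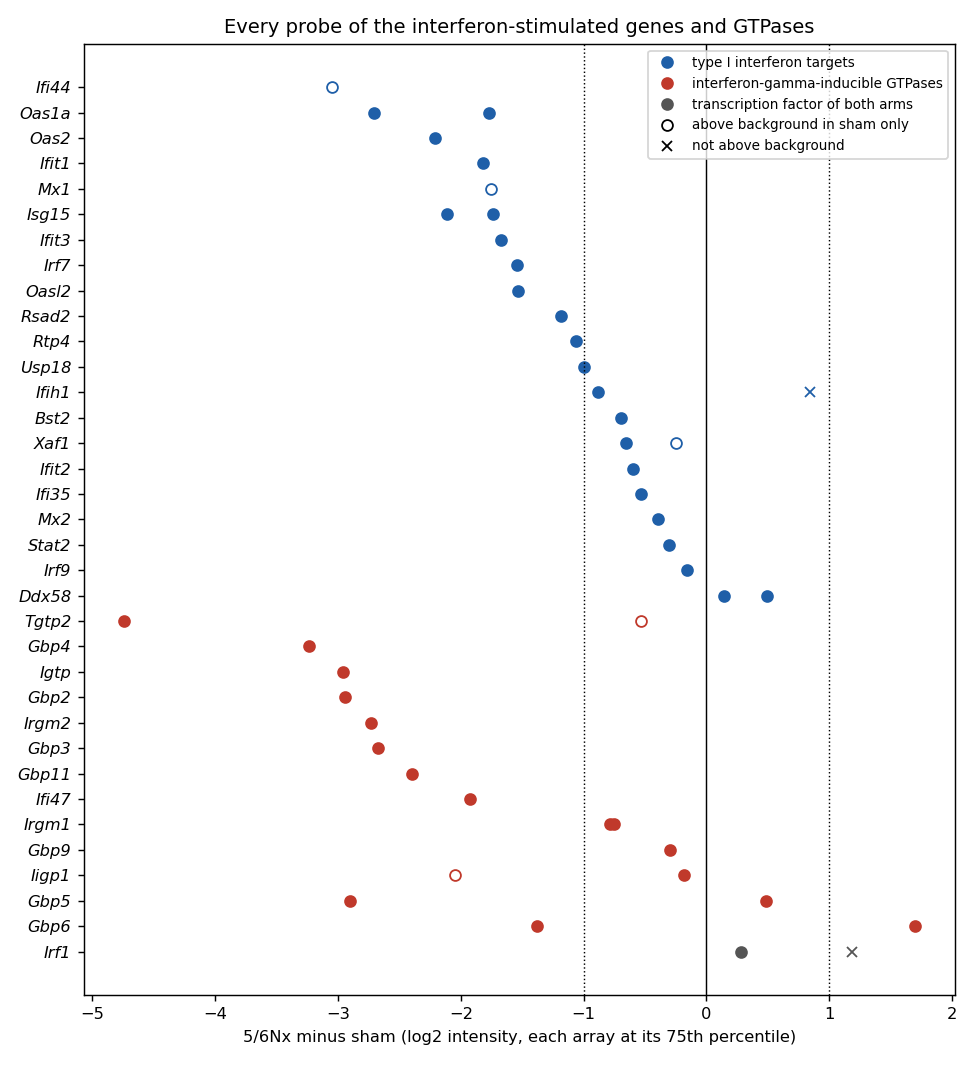
Each point is 1 probe of a member gene, placed by its difference between 5/6Nx and sham in log2 intensity, with genes ordered within the type I targets (blue), the GTPases (red) and Irf1 (grey). Open circles and crosses are probes not above background on 1 or both arrays, drawn at their measured difference, and dotted lines mark 2-fold. The points lie mostly left of 0, the GTPases reach further left than the type I targets, and Gbp5 and Gbp6 have probes on both sides of 0.

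The promoters of Igtp, Irgm2 and Tgtp2 are shown first because these IRG genes were at least 2-fold lower and carry both kinds of interferon motif next to each other. RefSeq promoter sequences of the GRCm38.p6 build, 250 bases before to 50 after the start site, were held for 25 members, while Gbp4, Gbp6, Gbp9, Gbp11, Iigp1, Mx1, Mx2, Oas2, Rtp4 and Usp18 were not searched. They were searched on both strands, overlaps allowed, for the ISRE core, 2 copies of GAAA with any 2 bases between them, and the GAS core TTCNNNGAA. The sequences run 5′ to 3′ on the gene's strand, and capitals mark the matches. A match is a description of the letters and not evidence of binding.
Igtp, chr11:58199491-58199551, plus strand: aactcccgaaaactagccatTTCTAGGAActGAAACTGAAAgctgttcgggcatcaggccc
Irgm2, chr11:58214882-58214942, plus strand: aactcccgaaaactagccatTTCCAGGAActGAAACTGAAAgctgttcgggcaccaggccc
Tgtp2, chr11:49064253-49064313, minus strand: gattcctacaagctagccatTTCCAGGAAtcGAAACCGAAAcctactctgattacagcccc
In each of the 3 genes a GAS match is followed, after 2 bases, by an ISRE match, with the first base of the GAS match 45 (Igtp), 75 (Irgm2) and 81 (Tgtp2) bases before the start site. This arrangement occurred in 5 of 32851 promoters in the table, and the other 2 belong to Tgtp1 and Gm12185.

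Among the IRG GTPases, Tgtp2, Igtp, Irgm2 and Ifi47 were lower, and Irgm1 and Iigp1 were under 2-fold. Tgtp2, a GTPase that attacks the membrane around intracellular parasites, had the lowest difference of all members. Its brighter probe read 5577 in sham and 181 in 5/6Nx, a difference of -4.75. Its second probe, 232 bases further along the transcript, read 25.8 and 15.5 and was above background in sham only, at least 1.19-fold lower. The large Tgtp2 difference therefore rests on 1 probe and 1 spot on each array. The probe of Tgtp1, a near-identical neighbouring gene that is not a member, read 61.0 and 94.7, a difference of 0.84. Whether the probes of either gene also read transcripts of the other was not tested.

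Igtp, also called Irgm3, is a regulatory IRG protein of host membranes and was the best measured member. Its probe was printed on 10 spots, whose signals ran from 2379 to 2823 in sham and from 284 to 319 in 5/6Nx. The ranges did not overlap. The difference was -2.96, with differences of -3.09 to -2.71 at single spots and a between-spot SD of 0.11. This SD covers the printing and scanning of 1 RNA sample on each array and not the spread between animals. The near neighbour Irgm2, a second regulator, read 730 in sham and 95.9 in 5/6Nx, a difference of -2.73. Ifi47, an IRG protein also called Irgd, read 911 and 209, a difference of -1.92.

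Irgm1, the third regulator of the family, differed less. Its brighter probe read 1356 and 702 (difference -0.75) and its other probe 303 and 153 (difference -0.78), so both probes placed it under 2-fold. Iigp1, an effector GTPase that loads onto parasite vacuoles, had probes with unlike values. The brighter read 1136 in sham and 870 in 5/6Nx, a difference of -0.18. The dimmer, 513 bases upstream, read 66.4 and 14.0, was above background in sham only and was at least 3.08-fold lower. In all, 4 of 6 IRG members were at least 2-fold lower, none was higher, and their median was -2.33, beside 3.29% lower and 4.89% higher over all genes.

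In the GBP family 4 genes were lower, Gbp9 was under 2-fold, and Gbp5 and Gbp6 had probes that disagreed. Gbp4 read 1251 in sham and 115 in 5/6Nx (difference -3.24). Gbp2, a GBP that coats pathogen vacuoles and is also used as a marker of reactive astrocytes, read 2209 and 250 (difference -2.94). Gbp3 read 1348 and 184 (difference -2.67), and Gbp11 read 509 and 84.2 (difference -2.40). These 4 members had 1 probe each. Gbp9 read 304 and 216, a difference of -0.29 that is within the SD of 0.60 over all genes. Over the 7 GBP members, 4 were lower and 1 higher, with a median of -2.40, beside 3.29% lower and 4.89% higher over all genes.

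Gbp5, which promotes inflammasome assembly, and Gbp6 each had a pair of probes of opposite direction. The brighter Gbp5 probe read 3078 in sham and 3747 in 5/6Nx, a difference of 0.48. The dimmer, 3353 bases downstream on the genome, read 934 and 108, a difference of -2.90. For Gbp6 the brighter probe read 844 in sham and 2387 in 5/6Nx, a difference of 1.70. The dimmer, 2072 bases upstream, read 84.1 and 28.2, a difference of -1.38. Gbp6 was therefore the sole member counted as higher, and this rests on the choice of probe, since the mean of its probes gave 0.16. For Gbp5 the mean of the probes gave -1.21. The first 30 bases of the Gbp6 probes, in the order of the deposited probe sequence, are given so that the transcripts each can match may be looked up.
Gbp6, brighter probe: gaaatgtcaagttcaaaagaatgaactgtg
Gbp6, dimmer probe: ggctctcttaaatggattttctacagttct
Which transcript of its gene each probe reads was not analysed here.

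Promoter letters of the GBP genes are shown for 2 genes that were lower and for Gbp5. The Gbp2 and Gbp3 windows hold ISRE matches and no GAS match, while that of Gbp5 holds both.
Gbp2, chr3:142620584-142620633, plus strand: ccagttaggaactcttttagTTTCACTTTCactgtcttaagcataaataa
Gbp3, chr3:142559979-142560034, plus strand: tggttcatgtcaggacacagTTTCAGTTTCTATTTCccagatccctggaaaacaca
Gbp5, chr3:142496749-142496910, plus strand: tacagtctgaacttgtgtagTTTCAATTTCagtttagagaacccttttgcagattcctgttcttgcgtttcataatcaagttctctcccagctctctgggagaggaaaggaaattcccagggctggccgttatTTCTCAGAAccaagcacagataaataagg
In the Gbp3 stretch, 2 ISRE matches overlap. The Gbp5 window holds a further GAS match outside the stretch shown.

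The antiviral effectors of the type I arm were lower as a group but by less than the GTPases. Of 12 measured on both arrays, 8 were at least 2-fold lower and none higher, with a median of -1.36, and all 12 lay below 0. Over all genes, 3.29% were lower and 4.89% higher. Oas1a makes the short adenylate chains that switch on RNase L. Its brighter probe read 521 in sham and 69.5 in 5/6Nx (difference -2.71), and its other probe 129 and 33.0 (difference -1.77). Oas2, an enzyme of the same kind, read 174 and 32.9 (difference -2.21). Oasl2, a related protein, read 559 and 168 (difference -1.53). All 4 probes of these 3 genes were thus at least 2-fold lower.

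Ifit1, which binds viral RNA ends, read 325 in sham and 80.0 in 5/6Nx, a difference of -1.82. Ifit3, its partner protein, read 1321 and 361, a difference of -1.67. Ifit2 read 226 and 130, a difference of -0.60. The 3 Ifit genes thus had the same direction, and Ifit2 remained under 2-fold. Isg15, a ubiquitin-like protein that is attached to other proteins, read 3786 and 989 at its brighter probe (difference -1.74) and 248 and 50.01 at its other probe (difference -2.11). The brighter probe shares a run of 35 bases with the probe of Gm9706, which read 656 and 297 (difference -0.94).

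Rsad2, or viperin, an enzyme that makes a chain-terminating nucleotide, read 205 in sham and 78.7 in 5/6Nx (difference -1.18). Rtp4, a receptor transporter protein that also binds viral RNA, read 1310 and 546 (difference -1.06). Bst2, or tetherin, which holds budding virus on the cell surface, read 991 and 534 (difference -0.69). These differences were smaller than those of the Oas members Oas1a, Oas2 and Oasl2. Of the Oas genes outside the members, Oas1b stood at 0.21, Oas1c at 0.37 and Oasl1 at -1.48. Xaf1, a pro-apoptotic protein, read 814 and 450 at its brighter probe (difference -0.66), while its other probe read 25.2 and 18.5 and was above background in sham only. Mx2, a dynamin-like antiviral GTPase, read 233 and 154 (difference -0.40).

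Ifi44 and Mx1, the other two effectors, were above background in sham only and have bounds. Ifi44 read 106.9 in sham and 11.2 in 5/6Nx, at least 4.95-fold lower. Mx1, which blocks influenza virus in mice with an intact gene, read 41.0 and 10.6, at least 1.90-fold lower. With these bounds included, 10 of 21 type I targets were at least 2-fold lower and the median stayed at -0.997.

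The promoters of 3 effectors are shown because their genes were among the lowest of the type I targets and hold repeated ISRE matches.
Isg15, chr4:156200855-156200916, minus strand: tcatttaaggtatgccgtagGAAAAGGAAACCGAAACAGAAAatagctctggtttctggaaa
Ifit1, chr19:34640765-34640833, plus strand: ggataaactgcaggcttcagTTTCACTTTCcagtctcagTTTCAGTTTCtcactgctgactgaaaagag
Oas1a, chr5:120907526-120907643, minus strand: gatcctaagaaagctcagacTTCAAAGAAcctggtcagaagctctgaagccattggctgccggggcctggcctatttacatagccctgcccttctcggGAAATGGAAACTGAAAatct
The Isg15 window holds 3 overlapping ISRE matches, that of Ifit1 2 separate ones, and that of Oas1a 2 overlapping ones together with a GAS match.

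Of the transcription factors, Irf7 was lower and Stat2, Irf9 and Irf1 were under 2-fold. Irf7, the factor that amplifies type I interferon production, read 94.6 in sham and 28.3 in 5/6Nx, a difference of -1.54. Stat2 read 3779 and 2660 (difference -0.31) and Irf9 1580 and 1236 (difference -0.15), so both partners of the type I complex were well under 2-fold. Irf1, a factor induced by either interferon, read 2930 and 3108, a difference of 0.29 that became -0.00035 when the arrays were scaled to the spike-in probes. Its second probe was not above background on either array. The Irf1 promoter is shown as the window that holds a GAS match and no ISRE match.
Irf1, chr11:53769904-53769952, plus strand: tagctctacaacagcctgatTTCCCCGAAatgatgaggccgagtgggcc

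The RNA sensors and the regulators showed no 2-fold difference. Ddx58, which encodes the sensor RIG-I, read 492 in sham and 603 in 5/6Nx at its brighter probe (difference 0.50) and 27.1 and 26.1 at the other (difference 0.15). It was the sole type I target above 0. Ifih1, which encodes the sensor MDA5, read 344 and 162 (difference -0.88), and its second probe was not above background on either array. Usp18, which removes Isg15 and restrains the type I receptor, read 175 and 76.4, a difference of -0.997 that falls just short of the threshold. Ifi35 read 613 and 368 (difference -0.54). Usp18 and Ifih1 passed 2-fold under quantile normalization (-1.17 and -1.01), median, spike-in and lowess scaling and in the authors' table.

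**Figure D2:**
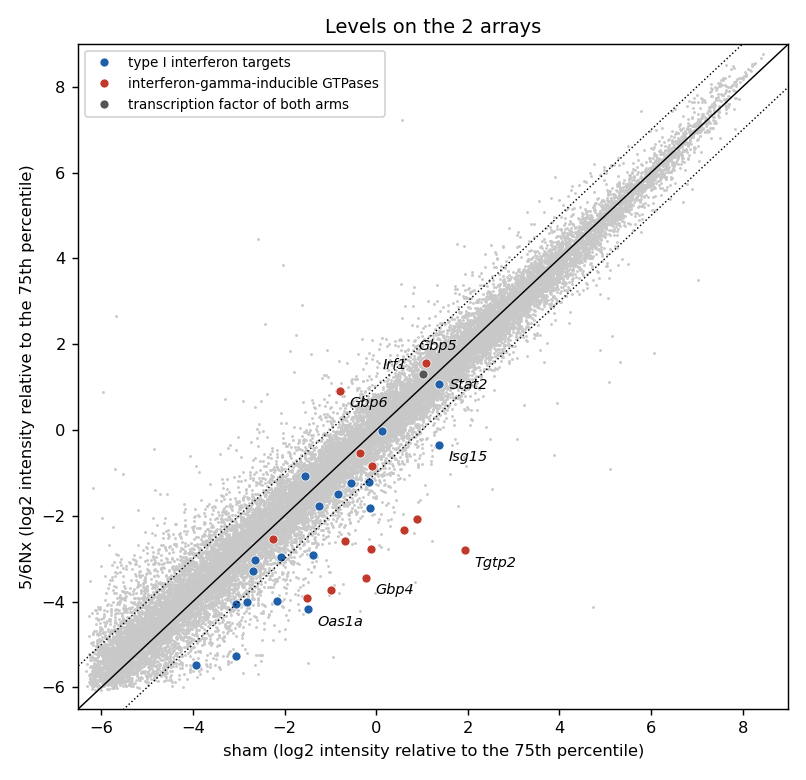
Log2 intensity of each measured gene in 5/6Nx (vertical axis) against sham (horizontal axis), relative to the 75th percentile of each array. Grey points are all 25917 measured genes, coloured points are the 33 members, the solid line marks equal values and the dotted lines 2-fold. Tgtp2 lies furthest below the lines among the members, and Gbp6 lies above them.

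The GTPases and the type I targets were then set side by side. Over all genes, 3.29% were at least 2-fold lower and 4.89% higher. Of 13 GTPases, 8 were at least 2-fold lower and 1 higher, with a median of -2.40. Of 19 type I targets measured on both arrays, 9 were lower and none higher, with a median of -0.997. The GTPases ranged from -4.75 (Tgtp2) to 1.70 (Gbp6) and the type I targets from -2.71 to 0.50, so the ranges overlapped. Each end of the wider GTPase range rests on 1 probe. The second Tgtp2 probe was at least 1.19-fold lower, and the second Gbp6 probe stood at -1.38. Members of a list are not replicates of a condition and no test was made between the lists. Genes of either list can respond to both interferons, so the lists do not separate the 2 arms. The GTPase median was the lower under each alternative except the restriction to genes above the median signal, which kept 6 GTPases with a median of -0.47 and 4 type I targets with -0.68.

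**Figure D3:**
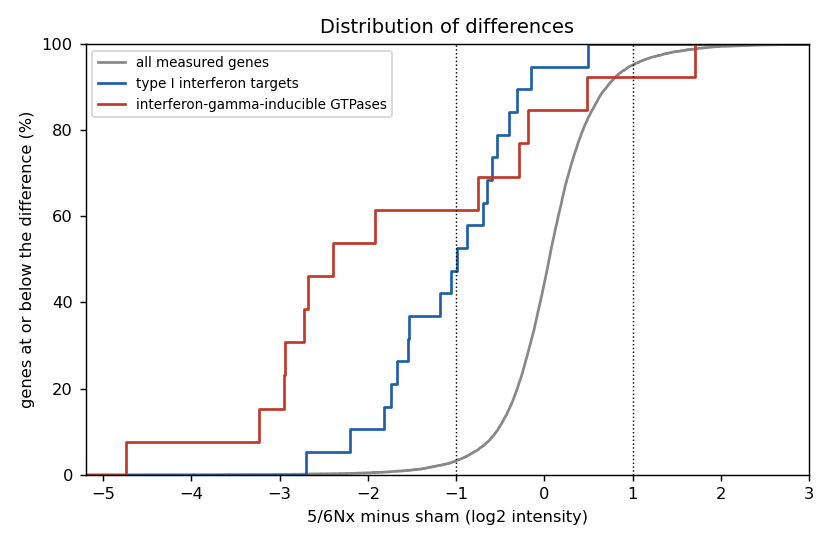
Cumulative share of genes (vertical axis, percent) at or below each difference between 5/6Nx and sham in log2 intensity (horizontal axis), for all 25917 measured genes, 19 type I targets and 13 GTPases. The GTPase curve starts further left than the type I curve, with its median at -2.40 against -0.997 for the type I targets. It crosses the type I curve between -1 and 0, and Gbp5 and Gbp6 lie at 0.48 and 1.70.

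At the level of probes, 39 of 46 were measured on both arrays and 5 were above background in sham only. Of the 39, 21 were at least 2-fold lower, where the share over all probes was 3.24%, and 1 was higher, where that share was 5.17%. For 6 members several probes were measured, and 2 of the 6 (Gbp5 and Gbp6) had probes of opposite direction. Over all 7995 genes with several measured probes, 35.2% had opposite directions, and the median span between the probes of a gene was 0.33. A span of over 2 on the log2 scale between probes of a gene occurred in the same 2 members and in 1.71% of all such genes. In the other 4 members (Irgm1, Ddx58, Isg15 and Oas1a) the probes differed by 0.03 to 0.93. Of the 46 member probes, 13 share a run of at least 15 bases with a probe of another gene.

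ISRE matches were frequent in the member promoters. They occurred in 16 of 25 members (64.0%), against 3.99% of the 27025 genes with promoters of equal length in the table (3.44% of 32851 promoters). Of the GTPases, 7 of 8 held a match, and of the type I targets 9 of 16. Among members at least 2-fold lower 10 of 13 had a match, and among those under 2-fold 6 of 11. Irgm1, which was under 2-fold, holds 2 overlapping matches, and Ifi47, which was lower, holds none. GAS matches occurred in 9 of 25 members (36.0%), against 9.55% of all genes (8.30% of promoters), and in 4 of 13 lower members against 5 of 11 under 2-fold. Members of these lists are in part defined by interferon induction, so the presence of the motifs is not independent of the choice of genes.

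Of 98 further pathway genes measured on both arrays, 12 (12.2%) were lower and 4 (4.08%) higher, beside 3.29% and 4.89% over all genes, with a median of -0.03. The lower ones lay among the downstream targets and the sensors. Ifng and Ifnb1, the genes of interferon-gamma and interferon-beta, were not above background on either array. Of 10 measured ligand genes, 1, Ifna11, was higher (108 in sham and 196 in 5/6Nx, difference 1.06), and the median of 0.24 turned to -0.042 after scaling to the spike-in probes. None of 9 receptor and kinase genes passed 2-fold, with Ifnar1 at 0.01, Ifnar2 at -0.28, Ifngr1 at 0.01, Ifngr2 at -0.23, Jak1 at -0.05, Jak2 at -0.21 and Tyk2 at 0.41. These encode the chains of both receptors and the kinases bound to them.

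None of 7 further STAT and IRF genes and none of 10 negative regulators passed 2-fold, with medians of 0.05 and 0.08. Irf3, which starts interferon transcription, had a difference of -0.34, and Irf8, a factor of myeloid cells, 0.26. Of 13 nucleic acid sensors and adaptors 1 was lower, Zbp1, a sensor of Z-form nucleic acid, which read 235 and 61.5 (difference -1.74).

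Further targets showed where the difference extended past the members, beside 3.29% lower and 4.89% higher over all genes. Of 31 further interferon-stimulated genes, 3 were lower, Oasl1 (-1.48), Ifit3b (-1.27) and Samd9l (-1.22), and 1 was higher, Lgals3bp (1.103), with a median of -0.19. The lower genes of this list numbered 7 with spike-in and 5 with median scaling and 1 with normexp or without background subtraction, and none was higher with spike-in or median scaling or with the mean over probes. The share lower over all genes was then 6.45% with spike-in and 4.74% with median scaling, 1.92% with normexp and 1.81% without background subtraction. Of 5 further interferon-inducible GTPases, 3 were lower, namely Gm4951 (304 in sham and 42.1 in 5/6Nx, difference -2.65), Gvin1 (-1.60) and Gbp7 (-1.50), while Tgtp1 and Gbp10 stood at 0.84 and 0.09. Of 13 interferon-gamma targets that are not GTPases, 5 were lower and 2 higher, with a median of -0.16. With normexp or without background subtraction 3 were lower, and the higher genes numbered 0 in these settings and with spike-in scaling and 1 with quantile, median and lowess scaling and in the authors' table. The 5 were Cd274, which encodes PD-L1 (-1.77), Nlrc5, the activator of MHC class I genes (-1.59, with its other probe at 0.028), the immunoproteasome subunits Psmb9 (-1.58) and Psmb8 (-1.07), and B2m, the light chain of MHC class I (14093 in sham and 5763 in 5/6Nx, difference -1.09). The 2 that were higher were the chemokine genes Cxcl10 (92.6 and 184, difference 1.19) and Cxcl9 (30.9 and 56.3, difference 1.07). Nlrc5, B2m and the immunoproteasome serve antigen presentation, while the products of Cxcl9 and Cxcl10 attract lymphocytes.

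**Figure D4:**
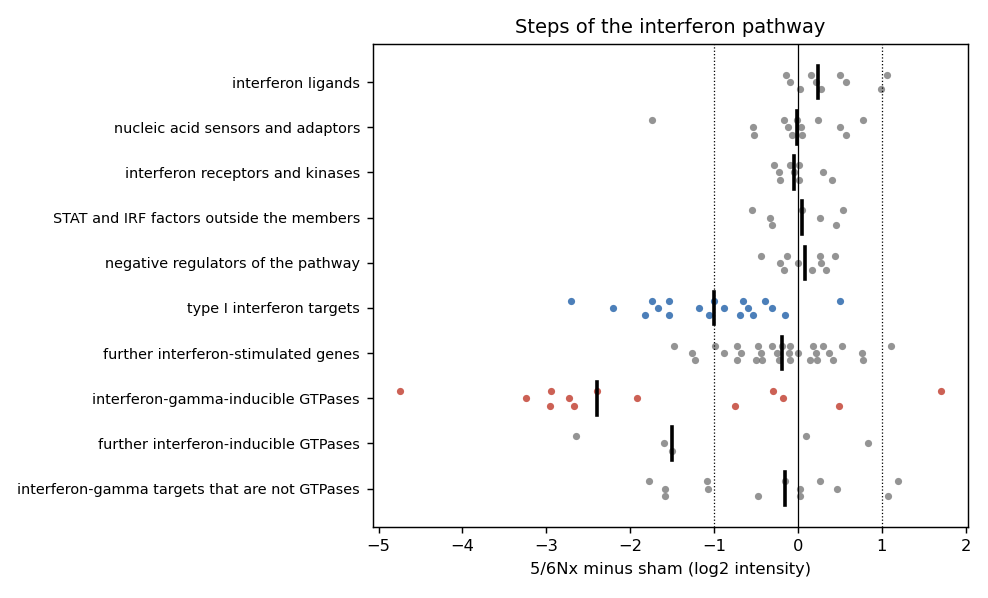
Difference between 5/6Nx and sham in log2 intensity (horizontal axis) for each measured gene of 10 lists along the interferon pathway, ordered from ligands to targets, with the median of each list as a black bar. Blue and red points are the type I and GTPase members and grey points are other genes. The medians of ligands, receptors, factors and regulators lie between -0.05 and 0.24, and those of the type I and GTPase members at -0.997 and -2.40.

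Most GTPase members lie in gene clusters, and the medians of their neighbours outside the interferon lists lay near 0. Positions are those of the probes on the mm9 build, and neighbours are measured genes within 500 kb. On chromosome 3 the Gbp2, Gbp3 and Gbp5 probes lie at chr3:142181426-142300778, with a median of -2.67 against -0.05 for 4 neighbours. On chromosome 5 the Gbp4, Gbp6, Gbp9 and Gbp11 probes lie at chr5:105508946-105752204, with a median of -1.34 against -0.02 for 13 neighbours. On chromosome 11 the Irgm1, Tgtp2 and Ifi47 probes lie at chr11:48679069-48910461, with a median of -1.92 against 0.19 for 22 neighbours, and the Igtp and Irgm2 probes at chr11:58020927-58036152, with a median of -2.84 against -0.02 for 25 neighbours. None of the neighbours on chromosome 3 or near Irgm1 was 2-fold apart, and on chromosome 5 and near Igtp 1 neighbour each was lower and 2 were higher. The lower neighbour of Igtp is Gm12250, known as Irgb10, an IRG gene that was on none of the lists and was named after its value of -1.24 was seen. The other neighbours were not searched for GTPase genes that the lists miss, so the neighbour medians may include some. Near Irgm1, 9930111J21Rik1 and Gm5431, whose gene family was not checked, stood at 0.31 and 0.11.

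**Figure D5:**
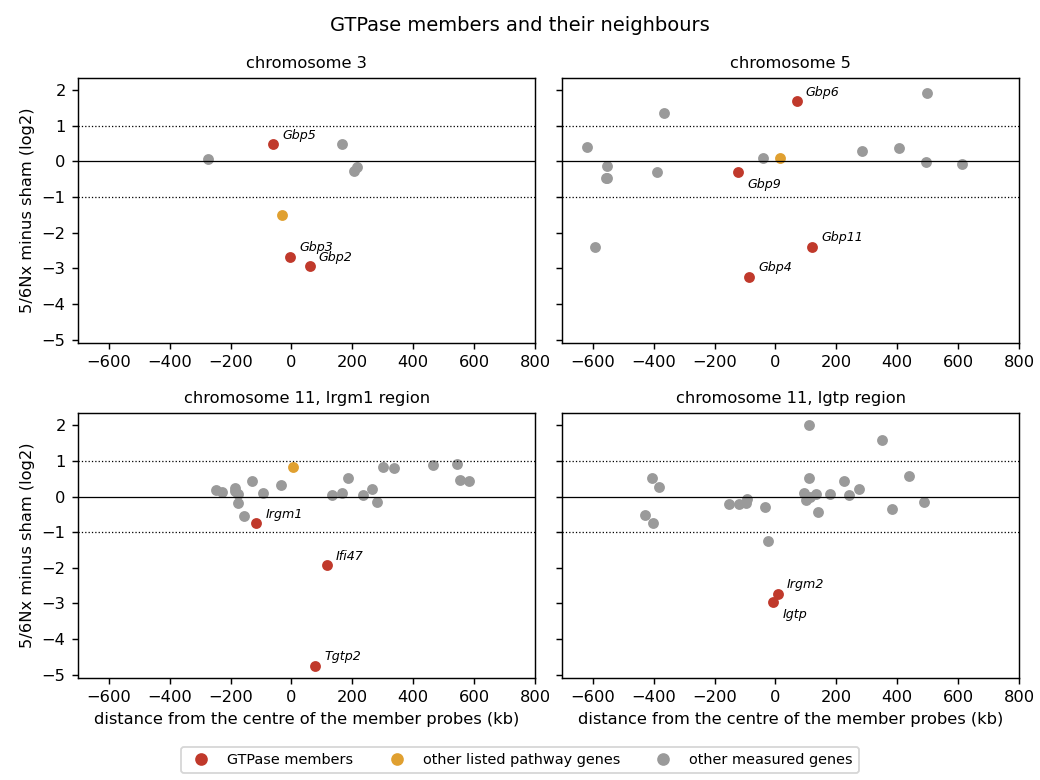
Difference between 5/6Nx and sham in log2 intensity (vertical axis) of each measured gene against its distance in kb from the centre of the member probes (horizontal axis), for 4 clusters of GTPase genes. Red points are GTPase members, orange points other listed pathway genes and grey points the remaining genes, and dotted lines mark 2-fold. The grey points scatter around 0 while the lower red points lie between -1.92 and -4.75.

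Cells other than those of the hippocampal tissue proper could carry interferon-stimulated transcripts, so lists of their markers were read beside the members. Over all genes, 3.29% were lower and 4.89% higher. Of 12 measured blood cell markers 10 were lower, with a median of -3.55 and S100a9 lowest (-4.39). Haemoglobin, neutrophil and platelet genes were among the lower ones, Ngp, Ltf and Ppbp were above background in sham only, and Ms4a1 was above it on neither array. In a list of leukocyte genes none of 7 measured was 2-fold apart, with a median of 0.03, Ptprc lowest (-0.28), and summed signals of 11299.8 and 9949 over 8 genes. In that list Cd3g, Ms4a1 and Ccr2 were above background on neither array and Itgax in sham only. Of 11 leptomeningeal markers 10 were lower, with a median of -2.18, from Slc22a6 (-2.61) to Igf2 (-0.50).

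Choroid plexus markers ran the other way, with 11 of 12 higher, a median of 3.51 and summed signals of 27344 in sham and 288735 in 5/6Nx, from Aqp1 (0.55) to Ttr (6.66). Of 12 microglial markers 3 were lower, with a median of -0.40, summed signals of 231149 and 226168, and extremes of Fcrls (-2.39) and C1qa (0.65). None of 12 endothelial markers was 2-fold apart, with a median of 0.13, sums of 90407 and 81394, and extremes of Ly6a (-0.82), itself an interferon-inducible gene, and Slc2a1 (0.34). Of 10 astrocyte markers 1, Gfap (1.12), was higher, with a median of -0.04, and Aqp4 was lowest (-0.83). Oligodendrocyte markers had 2 of 10 lower and 1 higher, with a median of -0.33, from Opalin (-2.30) to Mobp (1.44). Markers of hippocampal neurons had 2 of 12 lower and a median of 0.16, from Tubb3 (-1.48) to Grik4 (0.42). The medians of the blood cell and leptomeningeal lists thus lay below 0, like most members, and by less those of microglia, oligodendrocytes and astrocytes. The medians of the choroid plexus, endothelial, neuronal and leukocyte lists lay above 0. The part of any of these cells in the member differences was not tested.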

How the data were processed

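Hippocampal total RNA gave Cy3-labelled cRNA for 1-colour Agilent arrays of 60-base probes, 1 for each group, per the labels' protocols; the extraction kit named there is one for cells. The deposited scanner files hold linear intensity values per spot, which the authors extracted with Feature Extraction 10.7.1.1 per the file headers, while the submitters' processing notes give 9.5.1.1. This intensity had been corrected for background within each array by the authors and carries no scaling across arrays. The deposited value table of the series also holds linear intensity, whose sorted columns agree within 0.0323%, as quantile normalization by the authors gives, and it served as an alternative. All its columns were mapped to a sample (0 unmapped).

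Control and outlier spots were left out. Log2 intensities were centred on the 75th percentile of their array (1452 in sham, 1263 in 5/6Nx), and replicate spots were averaged. A gene was represented by its probe with the highest mean among those above background on either array, and was called measured where both arrays passed that mark for it. Otherwise the bright value was set against the higher of the dim probe's own value and the lowest signal well above background on its array (17.9 in sham, 18.8 in 5/6Nx), scaled alike, which gives an "at least" fold. Signals in the text are processed intensities before scaling. Differences were taken between the arrays and not between probes of different genes. The summed marker signals and the restriction to genes above the median signal do set levels of different genes side by side. The number of arrays limits the precision.

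Probes were named through RefSeq symbols where accessions matched, and members by the name in the scanner file. Named genes were every member with every probe, genes of other pathway lists that were at least 2-fold apart or define a step, and the highest and lowest gene of each cell type list. Gm12250, 9930111J21Rik1, Gm5431, Gm9706, Tgtp1, Gbp10, Oas1b, Oas1c, Hba-a2 and the blood and leukocyte genes that were not measured were added after their values were seen. A few genes that this rule takes, and 1 probe sequence, are not reported here. Members, lists and alternatives were chosen with earlier results of these data known. Python 3.11.15 with pandas 2.3.3, numpy 2.4.6 and statsmodels 0.14.6 and, for normexp, R 4.3.3 with limma 3.58.1 were used, and the calculation was tested on simulated data. The alternatives were other scalings (quantile, median, spike-in, lowess with span 0.3), normexp with offset 50, no background subtraction, the authors' table, no filter or a stricter filter on dim probes, averaged probes, outlier spots retained, and thresholds of 1.5-fold and 3-fold. No genome annotation of the mm9 build of the probes was used, so exon and UTR positions are not given.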

Additional observations from a re-analysis of the deposited data

How the results depend on the processing

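The 17 members that were at least 2-fold lower gave 174 values under 11 alternatives planned with the design. Each of the 174 was negative, 168 reached 2-fold, and 14 of the 17 were so under each alternative that gave them a value. Irf7, Rsad2 and Rtp4 fell under 2-fold with normexp (-0.61, -0.66 and -0.96) and without background subtraction (-0.54, -0.59 and -0.95). Medians of all members, the type I targets and the GTPases were, in this order, -0.70, -0.61 and -1.77 with normexp, -0.67, -0.59 and -1.67 without background subtraction, and -1.35, -1.28 and -2.68 after spike-in scaling, where the rest of the pathway stood at -0.32, Irgm1 passed 2-fold (-1.04) and the ligand median became -0.042; the median over the whole array was then -0.23. Among genes above the median signal, 4 members were lower (median -0.31), 2 of them type I targets (-0.68) and 2 GTPases (-0.47), with 3 lower and 1 higher in the rest of the pathway; fewer genes remain there by construction. In the rest of the pathway the higher genes numbered 2 with quantile normalization, lowess and the authors' table, 1 with median scaling, normexp and no background subtraction, and 0 with spike-in scaling, and without background subtraction 6 were lower. At 1.5-fold 14 type I targets were lower and 9 genes of the rest higher, and at 3-fold 5 type I targets and 5 of the rest were lower and 0 of the rest higher. With the mean over probes no member was higher (0 in all, 0 among GTPases), Gbp6 stood at 0.16 and Gbp5 at -1.21. Taking the dimmest measured probe, an alternative chosen after seeing the data, also left 0 members and 0 GTPases higher, with Gbp6 at -1.38, Gbp5 at -2.90, a median of -1.38 over all members and -2.67 over the GTPases. Except where the construction shows it, the cause was not tested.

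Over all genes, the lower numbered 852 in the main setting, 1672 with spike-in scaling, 497 with normexp, 468 without background subtraction and 1668 with no filter on dim probes, and the higher 1268, 705, 683, 635 and 2590. No paired analysis was possible because only 1 array stands in each group, and no sample could be left out.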

Other observations

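Ifi27, a listed gene that was found under no feature of that name, has an accession match in a probe that the scanner file names Ifi27l1. This probe read 29693 in sham and 21447 in 5/6Nx, a difference of -0.27, and was counted with no list. Irf4, a factor of lymphoid cells outside the members that was chosen after its value was seen, was above background in sham only, at least 1.55-fold lower. Phf11d, a further interferon-stimulated gene also chosen after its value was seen, fell just short of 2-fold at -0.99 (205 in sham and 89.3 in 5/6Nx).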
